A study of Bos taurus with 22 samples.

Results

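The brush border carbohydrases described here are 4 genes, SI, MGAM, LCT and TREH, of the 27570 genes in the deposited tables for the jejunal mucosa of Holstein steers. They were chosen by gene symbol as the enzymes of the small intestinal brush border that split dietary di- and oligosaccharides, and each symbol matched 1 row. Their levels were compared across the treatments and set against VIL1, the gene of villin, an actin-bundling protein of the microvillus core.

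RNA was sequenced from 22 steers of 220.0 to 294.1 kg body weight, all at most a year old and each contributing 1 library. Every steer received 3.94 g raw corn starch per kg body weight per day into the abomasum for 7 days, so no group was without infused starch. The 2 factors were casein, infused with the starch at 1.30 g per kg per day or replaced by water, and GLP-2, injected under the skin at 100 µg per kg per day or replaced by its vehicle containing BSA. This gave 5 control steers (water and vehicle), 5 GLP-2 steers (water and GLP-2), 6 casein steers (casein and vehicle) and 6 casein + GLP-2 steers. Below, "BSA" stands for the 11 steers given the vehicle and "GLP-2 steers, pooled" for the 11 given the peptide. Library totals ranged from 8809666 to 28447810 counts with a median of 12028560.5, and the lowest count of any carbohydrase in any steer was 438.

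Starch is cut by pancreatic α-amylase in the gut lumen to short chains, which enzymes anchored in the enterocyte membrane then cut to glucose. Sucrase-isomaltase (SI) and maltase-glucoamylase (MGAM) are the α-glucosidases that finish this work, and cattle are known for having little intestinal sucrase activity. Lactase (LCT) splits milk lactose and is known for its decline after weaning, and trehalase (TREH) splits trehalose, a sugar of fungi and insects. Glucagon-like peptide 2 is an intestinal hormone known for its growth effect on the mucosa, and its use here asked whether it and casein raise the mucosal capacity for starch digestion.

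On ARS-UCD1.2, the build of the tables, SI lies at chr1:102272282-102388043 on the plus strand, MGAM at chr4:105285315-105466927 on the plus strand and LCT at chr2:61535026-61583839 on the plus strand. TREH lies at chr15:29310821-29323620 on the minus strand. All 4 are annotated as protein coding, so the genes sit on 4 chromosomes and share no locus. MGAM2, a paralog of MGAM, has no row under that name, and whether its reads fall in the MGAM row was not tested.

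The libraries held the defining markers of enterocytes. VIL1 lay between 137.8 and 1630 FPKM (fragments per kilobase of gene, scaled to the size of the library) in the 22 steers, and no gene of the 12-gene microvillus list or the 8-gene epithelial list was at 0 in every steer. The lists of other cell types also had no gene at 0 in every steer, so this does not set enterocytes apart. Other tissue was present too. The summed level of a 12-gene B cell follicle list, in counts scaled to the size of the library (CPM), ran from 34.3 to 89.5 in the GLP-2 steers, pooled, and from 53.8 to 2266 in BSA steers, and that of a 7-gene smooth muscle list from 21.6 to 594 and from 19.9 to 1133. These are bulk libraries, in which fewer enterocytes and less RNA per enterocyte cannot be told apart.

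LCT was the most abundant carbohydrase per gene length, with a median of 257 FPKM over the 22 steers. SI followed at 129, and MGAM and TREH had medians of 70.5 and 70.3 FPKM. On the log2(FPKM + 1) scale LCT lay above SI in 17 of 22 steers, with a mean difference of 0.63 ± 1.34 (SD, n = 22, paired permutation test, p = 0.0389). SI lay above MGAM in 21 of 22 steers, by 1.39 ± 0.89 (p = 1e-05, paired permutation test, the smallest that 100000 resamples can give). MGAM and TREH had nearly the same median, yet TREH was the higher of the pair in the other 15 steers and MGAM in only 7, and MGAM was on average lower by 0.46 on the log2 scale (paired permutation test, p = 0.0468). The order LCT over SI and the order of TREH over MGAM each rest on p-values near 0.05. The number of the 3 neighbour steps with p of at most 0.05 ranged from 1 to 3 when single steers were left out.

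The order differed between treatments. In control steers the medians ran from SI (115 FPKM) over TREH (58.0) and LCT (34.9) to MGAM (10.97). With casein alone they ran from SI (114) over LCT (110.5) and TREH (53.9) to MGAM (41.4). With GLP-2 alone LCT led at 550.1 FPKM, ahead of SI (126), TREH (94.3) and MGAM (76.0). With casein + GLP-2 LCT again led at 583 FPKM, followed by SI (217), MGAM (102) and TREH (85.7). LCT thus took 34.4% ± 15.4 of the summed FPKM of the 4 genes in BSA steers (SD, n = 11) and 55.8% ± 12.5 in the GLP-2 steers, pooled (SD, n = 11). SI took 36.1% ± 13.3 and 21.8% ± 7.66 in the same groups, and TREH 19.9% ± 8.82 and 11.2% ± 4.46. MGAM held a like share in both, 9.55% ± 3.77 and 11.2% ± 3.02. These shares sum to the whole, so they are not independent of each other.

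**Figure D1:**
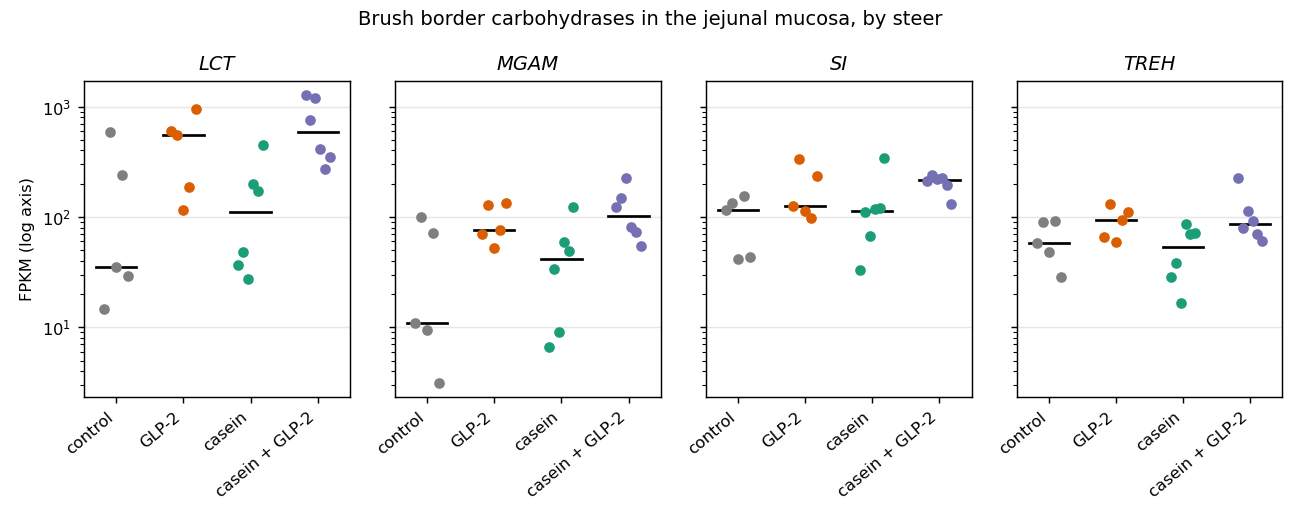
Levels of LCT, MGAM, SI and TREH in FPKM on a log axis, 1 point per steer and a bar at the median of each treatment (5 control, 5 GLP-2, 6 casein, 6 casein + GLP-2). LCT and MGAM spread over more than an order of magnitude among control and casein steers. The steers given GLP-2 lie in the upper part of that range or above it.

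LCT varied most between steers. The 5 control steers had 14.5, 584, 34.9, 239.8 and 29.1 FPKM of LCT in the order of their blocks, and the 5 GLP-2 steers 603, 550.1, 117, 188 and 959 FPKM. The control steers were of blocks 1, 2, 3, 4 and 5 and the GLP-2 steers of blocks 1, 3, 4, 5 and 6. Lists in this order, here and below, therefore do not pair steers by position. In casein steers LCT ran from 27.5 over a median of 110.5 to 448 FPKM, and in casein + GLP-2 steers from 274 over 583 to 1263 FPKM. Control and casein steers fell into low and high values, with 6 steers, 3 of each treatment, below 50 FPKM, a limit chosen after the values were seen, whereas no steer given GLP-2 lay below 117. These 6 steers were also low in VIL1, at 137.8 to 547 FPKM, beside 466 to 1630 in the other steers. The groups overlapped: 6 of 11 BSA steers lay below every GLP-2 steer, and 5 of 11 GLP-2 steers, pooled, lay above every BSA steer.

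MGAM, the glucoamylase, was also widely spread among BSA steers, at a lower level and without a gap as wide as that of LCT. The control steers had 10.97, 100.4, 9.45, 71.3 and 3.15 FPKM of MGAM, and the GLP-2 steers 69.7, 127, 52.7, 76.0 and 134 FPKM. In casein steers MGAM ran from 6.62 over 41.4 to 123 FPKM and in casein + GLP-2 steers from 54.0 over 102 to 223 FPKM. Here 7 of 11 BSA steers lay below every GLP-2 steer. The highest MGAM value was 71.0 times the lowest over the 22 steers, and for LCT this ratio was 87.0.

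SI, the enzyme with sucrase and isomaltase sites, varied less, with a ratio of 10.4 between the highest and the lowest steer. The control steers had 115, 135, 41.7, 155 and 43.0 FPKM of SI and the GLP-2 steers 126, 332, 112, 97.3 and 237 FPKM. In casein steers SI ran from 32.8 over 114 to 341 FPKM, so that the highest SI value of all was in a casein steer. In casein + GLP-2 steers it ran from 132 over 217 to 238 FPKM, the narrowest spread of SI in any treatment (coefficient of variation 18.7%).

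TREH, trehalase, had a ratio of 13.6 between its extremes. The control steers had 58.0, 89.5, 47.8, 92.0 and 28.4 FPKM of TREH and the GLP-2 steers 66.2, 131, 58.8, 94.3 and 110.4 FPKM. In casein steers TREH ran from 16.4 over 53.9 to 86.7 FPKM and in casein + GLP-2 steers from 61.0 over 85.7 to 224 FPKM. Among BSA steers, 6 of 11 lay below every GLP-2 steer, and 6 of 11 GLP-2 steers, pooled, lay above every BSA steer.

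Exogenous GLP-2 administration was compared with BSA over all 22 steers, and 1 of the 4 carbohydrases, LCT, rose. The mean log2 CPM of LCT was 8.94 ± 1.84 in BSA steers (SD, n = 11) and 11.46 ± 1.08 in the GLP-2 steers, pooled (SD, n = 11). In the fit to the counts LCT was 3.65-fold higher with GLP-2 (log2 fold change 1.87, SE 0.59, 95% CI 0.65 to 3.09, adjusted p = 0.0407, edgeR quasi-likelihood test). TREH and MGAM met only the looser limit of a tendency, an adjusted p above 0.05 and up to 0.1. TREH had a log2 fold change of 0.82 (SE 0.28, adjusted p = 0.0524) and MGAM of 1.29 (SE 0.50, adjusted p = 0.0768). SI had a log2 fold change of 0.74 (SE 0.33, adjusted p = 0.112) and passed neither limit. Of the 13928 genes tested, 13.5% were called, 5.13% higher and 8.37% lower with GLP-2, and 11.9% were higher at an adjusted p of at most 0.1. The median log2 fold change of the 4 members was 1.06, beside 0.0079 over all genes.

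The call for LCT was close to the threshold. Its adjusted p ran from 0.0112 without control replicate 2 to 0.0772 without casein + GLP-2 replicate 3 when each steer was left out in turn, and it stayed at or below 0.05 in 9 of 22 such fits (edgeR). The call was lost without replicate 1, 3 or 5 of the control group, 3 or 6 of the GLP-2 group, 1, 2, 3 or 5 of the casein group, or 1, 2, 3 or 4 of the casein + GLP-2 group. Without casein replicate 6 all 4 members passed, and without control replicate 1 none did. With the replicate block, the body weight class in which steers were assigned to treatments, as a term, LCT had a log2 fold change of 2.18 and an adjusted p of 0.0576, and 0 of the 4 members were called. Without the filter on low counts the adjusted p of LCT was 0.0507, and again 0 of the 4 were called. The DESeq2 Wald test called LCT, MGAM and TREH, and limma on log2(FPKM + 1) all 4. DESeq2 also called more genes of any kind, 2999 beside 1881 in the edgeR fit of 13928 genes. The number over all genes for limma on FPKM is not reported here, so these calls are not particular to the carbohydrases. Within the 10 pairs of steers that shared a block and an infusion, LCT, MGAM and SI were each higher in the GLP-2 steer of 8 pairs, and TREH in 7. The mean paired difference of LCT was 2.69 ± 2.44 on the log2 CPM scale (SD, n = 10 pairs).

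**Figure D2:**
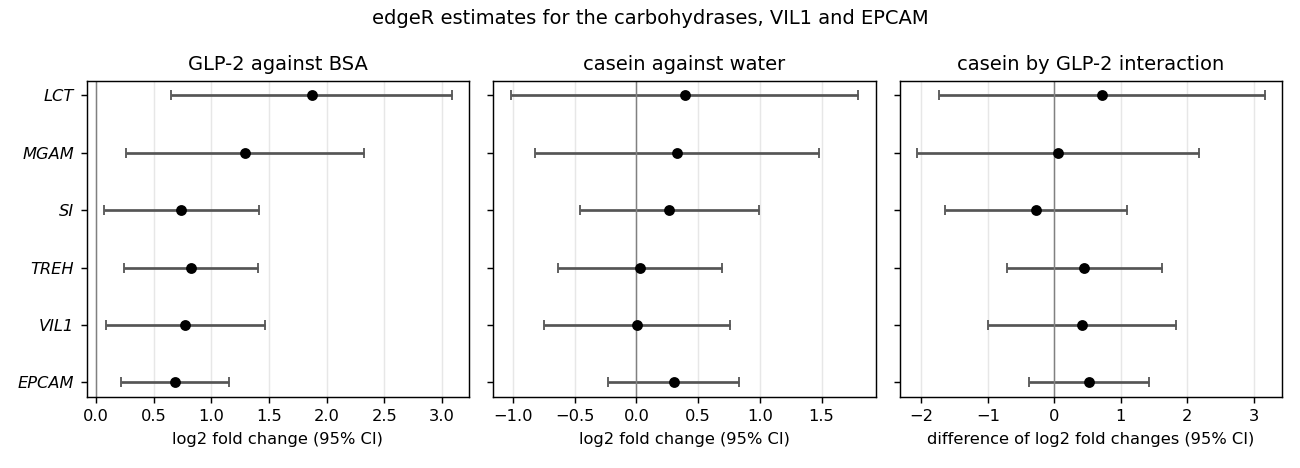
Estimates from edgeR's quasi-likelihood fit for the 4 carbohydrases, VIL1 and EPCAM, as log2 fold changes with 95% confidence intervals (bars) for GLP-2 against BSA, casein against water and their interaction. In the GLP-2 panel all 6 intervals lie above 0 without adjustment for the number of genes, and in the other 2 panels all 6 include 0.

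VIL1 itself had a log2 fold change of 0.77 between GLP-2 and BSA (SE 0.33, adjusted p = 0.107), close to the 0.74 of SI and the 0.82 of TREH. EPCAM, a membrane protein of all intestinal epithelial cells, was higher by 0.68 (SE 0.23, adjusted p = 0.047, and 0.0637 with the replicate block, edgeR). All 12 genes of the microvillus list had a positive log2 fold change and 3 passed the threshold, with a list median of 0.78, and 3 of 8 general epithelial genes passed it as well. With the replicate block 0 of these 3 microvillus genes and 2 of the 3 epithelial genes were still called, and without the filter on low counts 1 and 2. In the other direction, 9 of 10 tested B cell follicle genes were lower with GLP-2, with a list median of -3.93, and 2 of 5 plasma cell genes were lower. Of the 7 smooth muscle genes 0 passed the threshold, with all 7 log2 fold changes below 0 and a median of -1.40. Of the other lists, 2 of 9 crypt and proliferation genes were lower (median -0.51, and 0 with the replicate block), 1 of 3 ileal bile acid genes was lower (median 0.22), and 0 of 3 goblet, 0 of 4 enteroendocrine, 0 of 5 T cell, 0 of 6 macrophage and 0 of 5 stroma genes passed. The part of these other cells in the carbohydrase result was tested only for the follicle genes, as follows.

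Among BSA steers alone, LCT and MGAM were lower where the follicle genes were higher. A follicle score, the mean log2 CPM of the 12 genes, averaged 3.65 ± 2.33 in BSA steers (SD, n = 11) and 0.99 ± 0.60 in the GLP-2 steers, pooled (SD, n = 11), and the groups overlapped. Among the 11 BSA steers the score was inversely related to LCT (r = -0.82, rho = -0.82, permutation p = 0.00469 and 0.00347, adjusted over 9 relations 0.0155 and 0.0203) and to MGAM (r = -0.81, rho = -0.74, permutation p = 0.00517 and 0.0124, adjusted 0.0155 and 0.0373). For VIL1 the value was r = -0.81 (rho = -0.80, permutation p = 0.00341 and 0.00452, adjusted 0.0155 and 0.0203). SI and TREH had r of -0.60 and -0.64 (rho = -0.59 and -0.63, permutation p = 0.0545 and 0.0603 for SI and 0.0356 and 0.0437 for TREH, with adjusted values of at least 0.0535). Without the 2 steers of most extreme score, r was -0.81 for LCT, -0.80 for MGAM and -0.73 for VIL1. Among the 11 GLP-2 steers the signs were the same, with r from -0.40 for SI to -0.69 for MGAM, and 0 of 9 relations passed after adjustment (permutation tests, smallest unadjusted p = 0.0165 for r).

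With this score as a covariate the log2 fold change of LCT between GLP-2 and BSA was 0.54, that of TREH 0.27, SI 0.11 and MGAM 0.0968, and that of VIL1 -0.0498 (adjusted p = 1.00 for each, edgeR quasi-likelihood test). In that fit 0 of 13928 genes were called. The score and the injection overlap as predictors, so this fit takes up any part of the difference that the score shares with the injection.

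Postruminal casein infusion was compared with water over the same steers. No carbohydrase passed the test, and 0% of 14096 genes did (edgeR quasi-likelihood test, with 474 genes at an unadjusted p of at most 0.05, and 5 genes called by DESeq2, none of them a carbohydrase). LCT had a log2 fold change of 0.39 (95% CI -1.02 to 1.80), MGAM of 0.33 (-0.82 to 1.48), SI of 0.27 (-0.46 to 1.00) and TREH of 0.0269 (-0.64 to 0.69). The interval for LCT thus spans from 0.49-fold to 3.48-fold, and that for TREH from 0.64-fold to 1.62-fold. Among steers of the same block and injection LCT was higher with casein in 6 of 10 pairs, SI in 5, MGAM in 4 and TREH in 3.

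In the model of the 4 treatments, fitted to 15086 genes, 0% of genes passed the threshold in each of the 4 pairwise contrasts and in the interaction (edgeR quasi-likelihood test). At an unadjusted p of at most 0.05 the counts were 2103 genes for GLP-2 against control, 3637 for casein + GLP-2 against casein, 854 for casein against control, 398 for casein + GLP-2 against GLP-2 and 645 for the interaction. DESeq2 called 285, 856, 10, 5 and 2 genes in the same order, among them 0 of the 4 carbohydrases in any contrast.

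Without casein, GLP-2 steers against control steers gave log2 fold changes of 1.43 for LCT, 1.24 for MGAM, 0.89 for SI and 0.56 for TREH (adjusted p from 0.406 to 0.545, edgeR). All 4 of these values turned with the follicle score as a covariate, to -0.26 for LCT, -0.44 for MGAM, -0.12 for SI and -0.63 for TREH (adjusted p from 0.793 to 0.993, edgeR). The score had a median of 5.93 in control steers (0.73 to 6.77) and of 1.17 in GLP-2 steers (0.37 to 1.34). Score and injection thus overlap as predictors here, and the turned signs cannot be read as effects of GLP-2. With casein, the log2 fold changes without the covariate were 2.15 for LCT (SE 0.83, unadjusted p = 0.0166, adjusted p = 0.147), 1.30 for MGAM (adjusted p = 0.25), 0.61 for SI (adjusted p = 0.39) and 1.0075 for TREH (unadjusted p = 0.0152, adjusted p = 0.143). These pairs of values do not share control steers. The interaction, the difference of the GLP-2 effects with and without casein, was 0.72 for LCT (95% CI -1.73 to 3.17), 0.0562 for MGAM (-2.06 to 2.18), -0.27 for SI (-1.64 to 1.10) and 0.45 for TREH (-0.71 to 1.62), with adjusted p of at least 0.996. All 4 intervals include 0 and are wide beside the effects themselves. Casein against control gave -0.19 for LCT, 0.28 for MGAM, 0.44 for SI and -0.27 for TREH, and casein + GLP-2 against GLP-2 gave 0.53, 0.33, 0.17 and 0.18.

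The ratio of each carbohydrase to VIL1 asks whether the enzyme differed by more than a structural gene of the same membrane. The FPKM ratio of LCT to VIL1 was 0.252 ± 0.166 in BSA steers (SD, n = 11) and 0.642 ± 0.295 in the GLP-2 steers, pooled (SD, n = 11). For MGAM it was 0.0676 ± 0.0409 and 0.119 ± 0.0367. For SI it was 0.245 ± 0.117 and 0.225 ± 0.0628, and for TREH 0.125 ± 0.0451 and 0.112 ± 0.0195. LCT and MGAM therefore had higher ratios with GLP-2, and the groups of SI and TREH overlapped nearly whole.

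By steer, the LCT ratio of the control group was 0.0372, 0.467, 0.144, 0.268 and 0.211, and that of the GLP-2 group 1.03, 0.452, 0.251, 0.252 and 0.814. In casein steers it ran from 0.0883 over 0.246 to 0.595 and in casein + GLP-2 steers from 0.406 over 0.683 to 1.16. The MGAM ratio was 0.0281, 0.0804, 0.039, 0.0795 and 0.0229 in the control steers and 0.119, 0.105, 0.113, 0.102 and 0.114 in the GLP-2 steers. In casein steers it ran from 0.0268 over 0.0764 to 0.163 and in casein + GLP-2 steers from 0.076 over 0.115 to 0.215. Every GLP-2 steer thus lay above every control steer in the MGAM ratio, a separation in that direction that 0.113% of 15085 genes had, and the 5 GLP-2 steers differed little among themselves (coefficient of variation 6.27%). With casein infused the MGAM ratios of the 2 groups overlapped. The share of 0.113% has a limit, since VIL1 divides every gene. Between the GLP-2 steers, pooled, and BSA the median log2 difference in this ratio over all genes was -0.94. A separation upward is thus rare for any gene, and the share does not measure how unusual MGAM is.

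**Figure D3:**
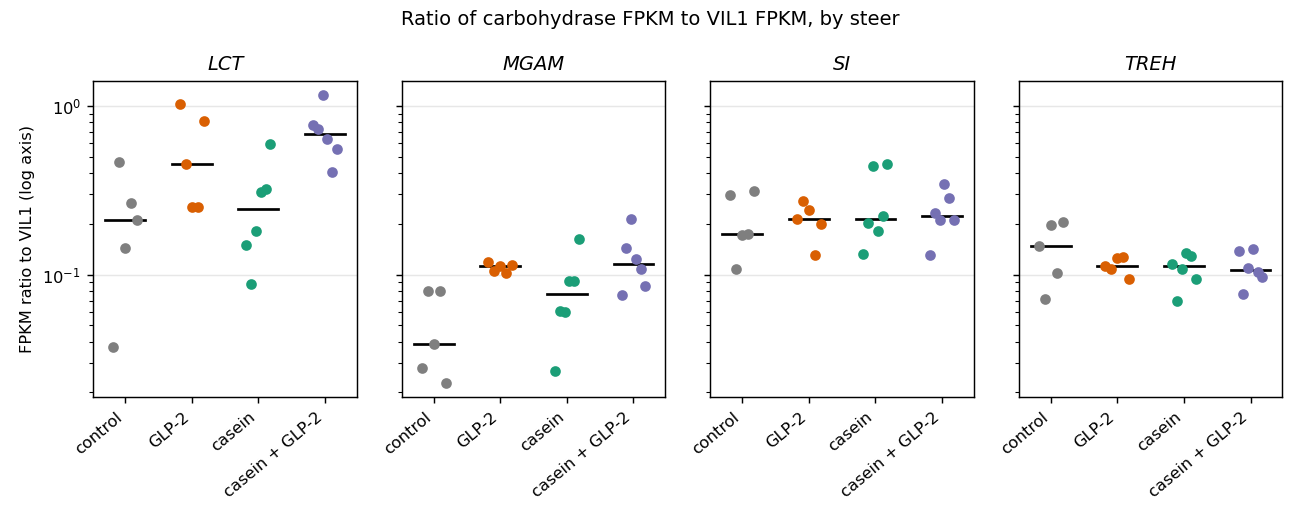
FPKM of each carbohydrase divided by the FPKM of VIL1 in the same steer, on a log axis, 1 point per steer and a bar at each treatment's median. The LCT and MGAM ratios lie higher in the steers given GLP-2, and the 4 treatments overlap in SI and TREH.

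On the log2 scale the LCT ratio was higher with GLP-2 by 1.53 (SE 0.38, 95% CI 0.75 to 2.30, unadjusted p = 0.000355, adjusted p = 0.0271, limma) and the MGAM ratio by 1.00 (SE 0.29, 95% CI 0.40 to 1.60, unadjusted p = 0.00201, adjusted p = 0.0271, limma). The SI ratio differed by -0.0339 (95% CI -0.56 to 0.49) and the TREH ratio by -0.0996 (-0.55 to 0.36). Permutation tests over the steers gave p = 0.00084 for LCT, 0.00214 for MGAM, 0.889 for SI and 0.575 for TREH. In this fit of 13927 genes 47.6% were called, 0.381% higher and 47.2% lower, and VIL1 is the denominator of every gene, so the adjusted p is lenient here and the unadjusted and permutation p-values are the ones to read. The 2 calls were kept with EPCAM or the mean of the microvillus list in place of VIL1 and with the replicate block. They were kept in 17 of 22 fits without a single steer, with adjusted p up to 0.0575 (limma, without control replicate 5). The others past 0.05 were those without control replicate 3, casein replicate 1, casein replicate 3 or casein + GLP-2 replicate 1, for both genes.

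The ratio is not free of the level of VIL1. With treatment means removed, the slope of log2 CPM on that of VIL1 was 1.46 (95% CI 0.95 to 1.98) for LCT and 1.48 (1.18 to 1.78) for MGAM, whereas it was 0.73 for SI (0.43 to 1.04) and for TREH (0.54 to 0.92). A slope above 1 means that the ratio itself rises with VIL1. With VIL1 as a covariate in place of the denominator, the difference between GLP-2 and BSA was 1.07 for LCT (unadjusted p = 0.0145, adjusted p = 0.741, limma), 0.54 for MGAM (unadjusted p = 0.0543), 0.22 for SI and 0.16 for TREH, and 0 of 13927 genes were called. With the follicle score as a covariate the differences in the ratio were 0.73 for LCT (unadjusted p = 0.0829, limma) and 0.33 for MGAM (unadjusted p = 0.282), 0.28 for SI and 0.27 for TREH, again with 0 genes called. In BSA steers the follicle score had r = -0.67 with the MGAM ratio, -0.57 with the LCT ratio, 0.40 with the SI ratio and 0.66 with the TREH ratio (rho = -0.70, -0.58, 0.29 and 0.55, permutation p = 0.0262, 0.064, 0.222 and 0.0302 for r). For rho the permutation p-values were 0.02, 0.0659, 0.385 and 0.0873, and after adjustment over 9 relations 1 of these values, the rho of MGAM (0.0451), passed.

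**Figure D4:**
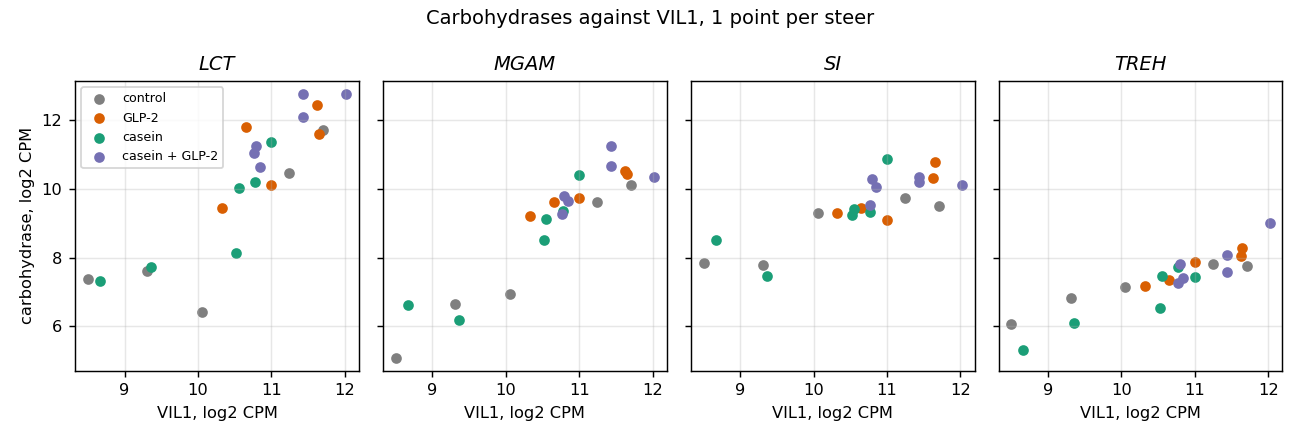
Log2 CPM of each carbohydrase against log2 CPM of VIL1, 1 point per steer, coloured by treatment. LCT and MGAM climb more steeply with VIL1 than SI and TREH do, and the lowest points of VIL1 are control and casein steers.

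No ratio to VIL1 passed the test between casein and water. The differences between casein and water were 0.47 for LCT (95% CI -0.52 to 1.45), 0.40 for MGAM (-0.32 to 1.12), 0.23 for SI (-0.31 to 0.76) and -0.20 for TREH (-0.67 to 0.27), with permutation p from 0.255 to 0.38 and 0% of 14095 genes called (limma, 39 genes at an unadjusted p of at most 0.05). The interaction of casein and GLP-2 in the ratio was 0.0835 for LCT (-1.49 to 1.65) and -0.61 for MGAM (-1.82 to 0.59), and 0% of 15085 genes were called (limma, 126 at an unadjusted p of at most 0.05).

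Setting the carbohydrases against each other separated them into pairs. The ratio of LCT to SI was higher with GLP-2 by 1.56 on the log2 scale (SE 0.44, 95% CI 0.67 to 2.45, unadjusted p = 0.00115, adjusted p = 0.0241, limma) and that of MGAM to SI by 1.03 (0.33 to 1.73, unadjusted p = 0.00503). Against TREH, LCT was higher by 1.62 (0.76 to 2.49, unadjusted p = 0.000568) and MGAM by 1.10 (0.35 to 1.85, unadjusted p = 0.00567). The ratio of TREH to SI differed by -0.0657 (-0.67 to 0.54) and that of LCT to MGAM by 0.53 (-0.35 to 1.40, unadjusted p = 0.229). These p-values depend on which gene is the denominator. With MGAM as the denominator, SI differed by -1.03 (-1.92 to -0.14, unadjusted p = 0.0241, limma). TREH differed by -1.10 (-2.05 to -0.15, unadjusted p = 0.025, limma), so both intervals were wider than those above. LCT was not used as a denominator, and no permutation test was run on these ratios. The fit with SI as the denominator called 46.1% of 13927 genes, 0.316% of them higher as a share of all genes, that with TREH called 48.3%, with 0.381% higher, and that with MGAM called 88.8%, with 0% higher. When single steers were left out, the ratios of LCT and MGAM to SI passed in 18 of 22 fits each, and those to TREH in 22. For the ratios to SI the adjusted p ran up to 0.0532 and 0.0563 (limma, without control replicate 5). Without control replicate 3, too, only 2 of the 6 ratios passed. With the follicle score as a covariate, 0 of these 6 ratios passed and the 4 differences that had passed were 0.45, 0.0456, 0.47 and 0.06 in the order given. The 6 ratios were not called between casein and water.

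Across the 22 steers the carbohydrases rose and fell together. The 6 pairs of members had Pearson r of log2 CPM from 0.74 (SI and TREH) to 0.92 (MGAM and LCT), with a median of 0.82, and Spearman rho from 0.71 to 0.90 (permutation tests, 10 relations, adjusted p of at most 0.00012 for r and 0.00035 for rho). The smallest unadjusted p, 1e-05, is the smallest that 100000 resamples can give. With VIL1 the r was 0.94 for MGAM, 0.91 for TREH, 0.87 for LCT and 0.83 for SI (rho = 0.92, 0.90, 0.88 and 0.80, permutation p of at most 5e-05). Without the 2 steers farthest from the median of the first gene, the 6 pairs had r from 0.71 to 0.94. These values share each steer's library, its depth, its RNA integrity and its share of epithelium, and r this high was not confined to the carbohydrases. The authors report that RNA integrity varied between samples, and its part here and in the ratios to VIL1 was not tested. Of 15085 genes, 9.0% had an r with SI at or above that of TREH. For MGAM with SI the share was 0.464%, and the other member pairs lay between.

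The relation also held inside the treatments. After the treatment means were removed, r of the 6 pairs ran from 0.67 to 0.87 (permutation within treatment, adjusted p of at most 0.0061). It ran from 0.68 to 0.90 among the 11 BSA steers (adjusted permutation p of at most 0.0215) and from 0.50 to 0.80 among the 11 GLP-2 steers, where SI and TREH did not pass (r = 0.50, rho = 0.54, permutation p = 0.111 and 0.093). In the GLP-2 steers SI and LCT passed by r (0.63, adjusted permutation p = 0.0473) but not by rho (0.57, adjusted permutation p = 0.0778). With VIL1 removed as well, the 6 values ran from -0.12 to 0.50 with a median of 0.0729. Only MGAM and LCT (r = 0.50, rho = 0.54, permutation p = 0.0142 and 0.0135, adjusted 0.0852 and 0.081) and SI and MGAM (r = 0.48, rho = 0.30, permutation p = 0.0525 and 0.221) stayed above 0.1, and 0 of 6 passed after adjustment.

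**Figure D5:**
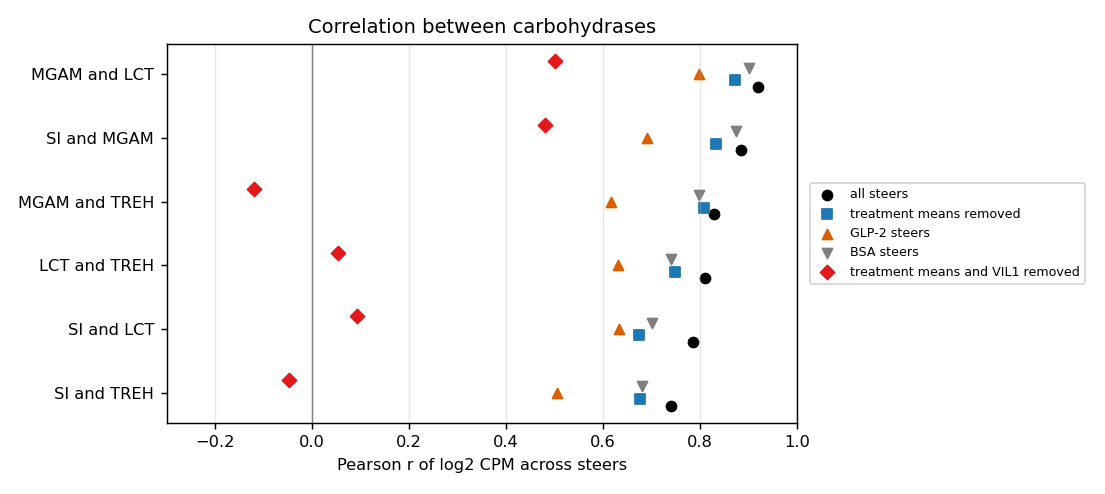
Pearson r of log2 CPM for each pair of carbohydrases across steers, for all 22 steers, with treatment means removed, within the 11 GLP-2 and the 11 BSA steers, and with treatment means and VIL1 removed. The first 4 versions lie between 0.50 and 0.92, and the last between -0.12 and 0.50.

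The genes with the highest r to each carbohydrase were also read. They were picked as the top 5 of all genes, so their r is bound to be high beside that of the few other members. Over the 22 steers and 15085 genes the median r with a member lay near 0. The members ranked from 70 (MGAM, by r with SI) to 1357 (TREH, by r with SI), and LCT had rank 167 by r with MGAM. MGAM was most like SEC16B (r = 0.98), TUBAL3 (0.98), NEDD4L (0.97), COBL (0.97) and GSDME (0.97). LCT was most like NPC1L1, the intestinal cholesterol uptake transporter (0.98), HEATR5A (0.97), LUZP1 (0.97), GCNT2 (0.97) and the copper transporter ATP7B (0.97). SI was most like HHLA2 (0.93), PIP5K1B (0.93), the brush border phospholipase PLB1 (0.93), GPR89A (0.92) and the glucose transporter SLC2A2 (0.92). TREH was most like QSOX1 (0.96), OS9 (0.96), SPINT1 (0.95), KCNK5 (0.95) and the biotinidase gene BTD (0.94).

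Genes of the same sugar pathway were read from lists of known function. Of 6 hexose transporter rows, 1 rose with GLP-2, SLC5A1, the sodium-glucose cotransporter of the brush border (log2 fold change 1.58, SE 0.46, adjusted p = 0.0314, edgeR), where 5.13% of all genes were called higher. With the replicate block its adjusted p was 0.0509 and 0 of the 6 rows were called. SLC2A1, the GLUT1 gene, had a value of -0.55 (adjusted p = 0.0551). The GLUT2 gene SLC2A2 had a value of 1.27 (adjusted p = 0.106). SLC2A5, the fructose transporter, is listed in 2 rows, with values of 1.71 (adjusted p = 0.182) and 0.52 (adjusted p = 0.425), so reads may be divided between them.

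Of 11 tested glycosidases that act outside the brush border, 6 rose and 0 fell with GLP-2, beside 5.13% of all genes called higher and 8.37% lower, and all 11 log2 fold changes were above 0 with a median of 0.52. Among those that rose were the lysosomal β-galactosidase GLB1 (0.52, adjusted p = 0.0239), the non-lysosomal glucosylceramidase GBA2 (0.53, 0.0455), the cytosolic β-glucosidase GBA3 (1.03, 0.0361) and the glucosidase of the endoplasmic reticulum GANAB (0.35, 0.0439). With the replicate block 1 of the 6, GBA3, was still called, and without the filter on low counts 4. Of 11 tested enzymes of intracellular hexose use, 2 rose, PGM1, which interconverts glucose phosphates (0.75, adjusted p = 0.0246, edgeR), and the hexokinase HK2 (0.82, adjusted p = 0.036), and 0 with the replicate block. None of the calls in these lists remained with the follicle score as a covariate, where 0 of all genes were called.

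Of 12 transcriptional regulators known to act on carbohydrase genes, 4 rose and 0 fell, beside 5.13% of all genes called higher and 8.37% lower. The log2 fold change was above 0 for 9 of the 12, and below 0 for CDX1 (-0.11), FOXA2 (-0.43) and MLXIPL (-0.0865). Among them were KAT2B (log2 fold change 0.63, SE 0.16, adjusted p = 0.023, edgeR), GATA6 (0.83, SE 0.23, adjusted p = 0.0257) and HNF4A (0.80, SE 0.24, adjusted p = 0.0346). With the replicate block 2 of the 4 were still called, KAT2B among them, and GATA6 and HNF4A had adjusted p of 0.0556 and 0.0596 (edgeR). CDX2, an activator of the SI promoter, had a value of 0.38 (adjusted p = 0.143), and GATA4 of 0.56 (adjusted p = 0.0728). With the follicle score as a covariate 0 genes were called, these among them. Between casein and water none of the members of these 4 lists passed the threshold.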

How the data were processed

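Jejunal mucosa RNA of 22 steers was sequenced from poly-A selected, strand-specific libraries. Per the labels, the authors aligned reads to ARS-UCD1.2 with HISAT2 2.0.5 and counted them per gene with featureCounts 1.5.0-p3, and the deposited count table holds these raw counts. The authors also deposited FPKM values, which are counts per kilobase of gene, scaled to the size of the library. Within a steer they are proportional to count over gene length, with an effective library of 0.730 to 1.25 times the total of deposited counts. StringTie 1.3.3b and DESeq2 1.20 are also named in the submitters' processing notes. The strand setting of the counting is not given in the sources used here. All sample columns were used (0 columns of other samples), no 2 libraries were identical, and 0 rows lacked a name or identifier. The authors' own comparisons were not used.

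Counts were filtered with filterByExpr (minimum count 10), scaled by TMM and tested with edgeR 4.0.16's quasi-likelihood test (R 4.3.3). Injection and infusion were each compared over all steers, and the pairwise contrasts and interaction came from a model of the 4 treatments. P-values were adjusted over all genes by the Benjamini-Hochberg method at 0.05. CPM is the count scaled to the TMM-adjusted library size, with a prior count of 2 on the log2 scale. Ratios to VIL1 were tested for all genes with limma 3.58.1 on log2 CPM differences, and by two-sided permutation over steers (100000 resamples, SciPy 1.17.1). Slopes on VIL1 are from least squares. The fits were tested on simulated data first.

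The 4 members, the gene lists and the tests were chosen with earlier results of these data known, so their counts are descriptions. Named genes are the members, VIL1, EPCAM, the list genes that passed or that are discussed as transporters and regulators (some are not reported here), and the 5 genes with the highest r to each member. Alternatives were DESeq2 1.42.0, other scaling, no filter, limma on FPKM, a follicle score, the other factor and single steers left out. Ratios between members, permutation tests, within-block differences and covariate fits of the ratio were chosen after seeing the data.

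Steers were assigned within 6 blocks of body weight, so the block number pairs steers by design. Deviations from treatment means correlated by 0.0331 on average in 30 same-block pairs and by -0.00641 in 151 other pairs. Each library is 1 steer, and depth limits counting error only.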

Additional observations from a re-analysis of the deposited data

Results flagged for a closer look

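SI in casein + GLP-2 replicate 6 lay apart from its group, at 9.54 log2 CPM, with the nearest of the other 5 steers at 10.07. Of 36 groups of values examined in this way 1 stood out, and chance marks about 1 in 20.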

How the results depend on the processing

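GLP-2 against BSA called 0 of the 4 members without a filter, with the replicate block or with the follicle score, 3 by DESeq2, 4 by limma on log2(FPKM + 1) and 4 with 0.1 added, and 0 to 4 without single steers. Genes called numbered 689 with the block, 2999 by DESeq2, 0 with the follicle score and 634 to 3516 without single steers, beside 1881. With the follicle score VIL1 turned to -0.0498. The cause of these changes was not tested.

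DESeq2 called 5 genes for casein against water, 285 for GLP-2 against control, 856 for casein + GLP-2 against casein, 10 for casein against control, 5 for casein + GLP-2 against GLP-2 and 2 for the interaction. With only the 2 treatments compared, casein + GLP-2 against GLP-2 called 1. Without single steers these numbers were 0 to 429 for GLP-2 against control and 0 to 1 for casein + GLP-2 against casein and against GLP-2.

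Directions changed as follows. For casein against water VIL1 was -0.00303 without a filter, TREH -0.00185 and VIL1 -0.00113 with the replicate block, TREH -0.12 and -0.13 by limma on FPKM with 1 and 0.1 added, MGAM -0.0303, LCT -0.0588, TREH -0.32 and VIL1 -0.30 with the follicle score, TREH -0.041 and VIL1 -0.0527 with the other factor, and TREH -0.17 and VIL1 -0.0337 within blocks. Without single steers TREH ran from -0.26 to 0.13 and VIL1 from -0.20 to 0.13. With the follicle score GLP-2 against control, where the values had been 0.56 to 1.43, gave SI -0.12, MGAM -0.44, LCT -0.26 and TREH -0.63, and casein against control SI -0.0895 and MGAM -0.46. For casein against control LCT was 0.15 with the block and 0.37 and 0.39 by limma on FPKM, and without single steers SI ran from -0.12 to 0.64, MGAM from -0.29 to 0.97 and LCT from -0.87 to 0.96. TREH ran from -0.14 to 0.38 for casein + GLP-2 against GLP-2. In the interaction SI was 0.0652 and MGAM -0.14 with the block, SI 0.0359 and 0.0362 and MGAM -0.34 and -0.39 by limma on FPKM with 1 and 0.1 added, SI 0.33 with the follicle score, and without single steers SI ran from -0.49 to 0.28, MGAM from -0.62 to 0.62 and LCT from -0.40 to 1.40.

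For the ratio to VIL1, 0 members were called with the follicle score or VIL1 as a covariate and 0 to 2 without single steers. SI was 0.25 and TREH 0.18 with EPCAM as the denominator, SI 0.0386 with the microvillus list, SI 0.28 and TREH 0.27 with the follicle score, SI 0.22 and TREH 0.16 with VIL1 as a covariate, and SI -0.14 to 0.069 without single steers. The casein difference of SI was -0.00193 with EPCAM. The interaction of LCT was -0.0855 with EPCAM, -0.0783 with the list and -0.00203 with VIL1 as a covariate, and without single steers SI ran from -0.36 to 0.0367 and LCT from -0.28 to 0.63. Of the ratios between members, 0 passed with the follicle score and 2 to 4 without single steers, where TREH over SI ran from -0.20 to 0.0447. The median correlation was 0.0729 with treatment means and VIL1 removed. Neighbour steps in the order of levels passed in 1 to 3 cases without single steers.

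Of 2237 alternative values of 78 results, 1570 without a single steer and 441 others kept their direction and their side of the threshold. With the replicate block the call of LCT between GLP-2 and BSA was lost, as were most calls among all genes and most calls higher in the gene lists. The 2 ratios to VIL1 and the 4 ratios between members remained called, at an adjusted limit that is lenient for ratios. In the ratio to VIL1, 7076 of 13927 genes were called with the block, beside 689 in the fit of levels. Keeping a call in the ratios cannot therefore be set against losing that of LCT.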
